A study of Mus musculus with 40 samples.

Results

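The genes described here encode 9 transcription factors that direct the myeloid lineages: *Spi1*, *Cebpa*, *Cebpb*, *Cebpd*, *Cebpe*, *Irf8*, *Irf4*, *Gfi1* and *Klf4*. They were taken by symbol from the 26411 genes of the count files and followed through the 4 genotypes of E14.5 foetal liver LSK cells, the lineage-negative, SCA-1+, c-KIT+ fraction that is sorted to enrich blood stem and progenitor cells. Bulk RNA-sequencing of 16 such samples, 4 for each genotype, gave 12270376 to 59216547 counts assigned to genes per library (median 21709236). WT carried both genes unaltered. *Kat6a*E/E was homozygous for G656E in KAT6A with *Kat6b* WT, and *Kat6b*E/E was homozygous for G577E in KAT6B with *Kat6a* WT. *Kat6a*E/E;*Kat6b*E/E, the double mutant, was homozygous for both alleles. The alleles are germline CRISPR knock-ins made on a C57BL/6J background, so every tissue carried them. Each changes 1 glycine of the acetyltransferase domain to glutamate and leaves the rest of the protein in place. The 16 samples came from 9 litters: 3 WT samples shared a litter with *Kat6a*E/E replicate 1, *Kat6b*E/E replicate 1 shared a litter with double mutant replicate 1, and double mutant replicates 2 to 4 came from 1 litter.

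Blood cell fate in the foetal liver is set by transcription factors that work in combination and at graded levels. PU.1, the product of *Spi1*, is an ETS family factor needed for macrophages, granulocytes and lymphocytes. The C/EBP proteins are leucine zipper factors, of which C/EBPalpha takes progenitors to the granulocyte and monocyte stage, C/EBPbeta drives emergency granulopoiesis and C/EBPepsilon drives late granule genes. IRF8 partners with PU.1 and favours monocytes and dendritic cells over neutrophils, whereas GFI1 is a zinc finger repressor that favours neutrophils. KAT6A and KAT6B are histone acetyltransferases of the MYST family that act as coactivators at chromatin.

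The 4 genes called in any comparison were *Spi1*, *Cebpa*, *Cebpb* and *Irf8*. Their positions on GRCm39 follow the GENCODE annotation. *Spi1* lies on chromosome 2 from 90912562 to 90946101 on the plus strand and its main transcript has 5 exons. *Cebpa* lies on chromosome 7 from 34818718 to 34821353 on the plus strand as 1 exon, and *Cebpb* on chromosome 2 from 167530835 to 167532338 on the plus strand, also as 1 exon. *Irf8* spans 121463096 to 121485659 on the plus strand of chromosome 8 and has 9 exons. The libraries did not keep the strand, so reads of *Gm74878*, *Gm45091* and *Peds1*, annotated on the opposite strand over parts of *Spi1*, *Cebpa* and *Cebpb*, cannot be told apart from those of the named genes there. No gene is annotated over *Irf8* on either strand.

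RefSeq promoter sequences of build GRCm38.p6 were matched for 6 of the 9 genes. *Spi1*, *Cebpd* and *Cebpe* are named only. The 250 bases before the start of *Irf8*, *Cebpa* and *Cebpb* are shown because these genes were called together when the single mutants were compared. For *Irf8*, which has a pair of starts in the table, the upstream one is shown. Capitals mark matches, on either strand, to 6 short motifs: AGGAAG (an ETS core that PU.1 binds), TTGCNNAA (C/EBP), TTCNNNGAA (the STAT element GAS), an IRF element (GAAA, any 2 letters, GAAA), AATCA (GFI1) and CACCC (KLF).
*Irf8*, chr8:120736108-120736357, plus strand: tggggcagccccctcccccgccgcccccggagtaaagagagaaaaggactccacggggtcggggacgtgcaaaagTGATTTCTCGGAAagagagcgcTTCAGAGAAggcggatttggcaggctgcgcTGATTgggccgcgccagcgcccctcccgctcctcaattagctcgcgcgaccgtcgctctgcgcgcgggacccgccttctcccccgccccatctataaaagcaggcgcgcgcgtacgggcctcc
*Cebpa*, chr7:35119043-35119292, plus strand: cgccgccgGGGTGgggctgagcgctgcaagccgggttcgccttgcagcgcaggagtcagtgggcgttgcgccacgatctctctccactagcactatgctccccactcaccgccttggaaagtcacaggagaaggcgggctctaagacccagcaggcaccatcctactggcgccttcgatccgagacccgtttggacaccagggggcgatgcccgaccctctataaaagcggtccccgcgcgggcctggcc
*Cebpb*, chr2:167688665-167688914, plus strand: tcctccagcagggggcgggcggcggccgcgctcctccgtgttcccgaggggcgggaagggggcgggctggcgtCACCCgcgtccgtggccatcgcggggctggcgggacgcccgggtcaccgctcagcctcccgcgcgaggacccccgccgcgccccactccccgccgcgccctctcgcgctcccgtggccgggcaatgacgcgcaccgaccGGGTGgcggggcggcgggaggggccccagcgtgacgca
The *Irf8* window held a pair of GAS matches, TTCTCGGAA at 171 to 163 and TTCAGAGAA at 153 to 145 bases before the start, and 2 matches to AATCA, read as TGATT, of which the one at 175 to 171 shares a base with the first GAS match. A GAS match occurred in 7.02% and AATCA in 33.7% of the 32851 promoter windows of the same length. The *Cebpa* window held 1 match to CACCC and the *Cebpb* window 2, a motif in 52% of all windows. AGGAAG, TTGCNNAA and the IRF element, in 29.5%, 9.56% and 2.98% of all windows, had no match in these 3 windows. These letter matches are descriptions and were not set against any measurement of binding.

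All 9 genes passed the filter on low counts, as did 13071 protein-coding genes in all. Levels are given as CPM, the counts of a gene relative to the TMM-scaled size of its library, and, between genes, as RPKM, which also divides by gene length. Differences are log2 fold changes fitted by limma, and a gene is called at FDR under 0.05. In WT, *Spi1* stood highest at 115 ± 11.5 RPKM (SD, n=4). *Cebpb* at 46.0 ± 4.14 and *Cebpa* at 42.5 ± 4.94 RPKM followed and did not differ beyond their spread. *Irf8* was at 29.7 ± 2.74 and *Gfi1* at 21.5 ± 1.79 RPKM, and *Cebpe* at 18.4 ± 9.30 RPKM was not separated from either by its spread. *Cebpd* was at 8.22 ± 0.904 RPKM. *Klf4* and *Irf4*, at 1.73 ± 0.373 and 1.39 ± 0.286 RPKM, were the lowest and also overlapped. *Irf4* rested on 10 to 468 counts per library and *Klf4* on 79 to 372, whereas each of the others had at least 200.

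Some libraries stood apart. Double mutant replicates 2 to 4 and *Kat6a*E/E replicate 2 had the 4 highest summed levels of 8 erythroid markers (6900 to 15600 CPM), against 527 to 5620 in the other 12 libraries. The same 4 libraries also had counts for fewer genes, 12600 to 13683 against 16082 to 17647 in the other 12, although total counts overlapped. The reason for this gap, such as the amount or quality of RNA, was not tested. The 4 surrogate variables, which the model of the study estimates to absorb unknown variation, were largely fitted to these 4 libraries, with leverages of 0.795 to 0.911 against at most 0.063 elsewhere. The share of each library was worked out by plain least squares with the same surrogate variables, without the weights and litter block of the limma fit. On that basis *Kat6a*E/E replicate 2 carried 7.1% of the *Kat6a*E/E estimate against WT, and double mutant replicate 1 alone carried 79.9% of the double mutant estimate. *Kit* was at 351 to 552 CPM, whereas *Ly6a*, which encodes SCA-1, was at only 0.937 to 10.3 CPM. *Kat6a* and *Kat6b* themselves were at 174 ± 8.35 and 35.6 ± 3.40 CPM in WT. They were at 180 ± 5.63 and 35.2 ± 8.62 CPM in *Kat6a*E/E, and at 167 ± 26.6 and 31.1 ± 6.61 CPM in *Kat6b*E/E, which checks no label, since a point mutation leaves the transcript countable.

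**Figure D1:**
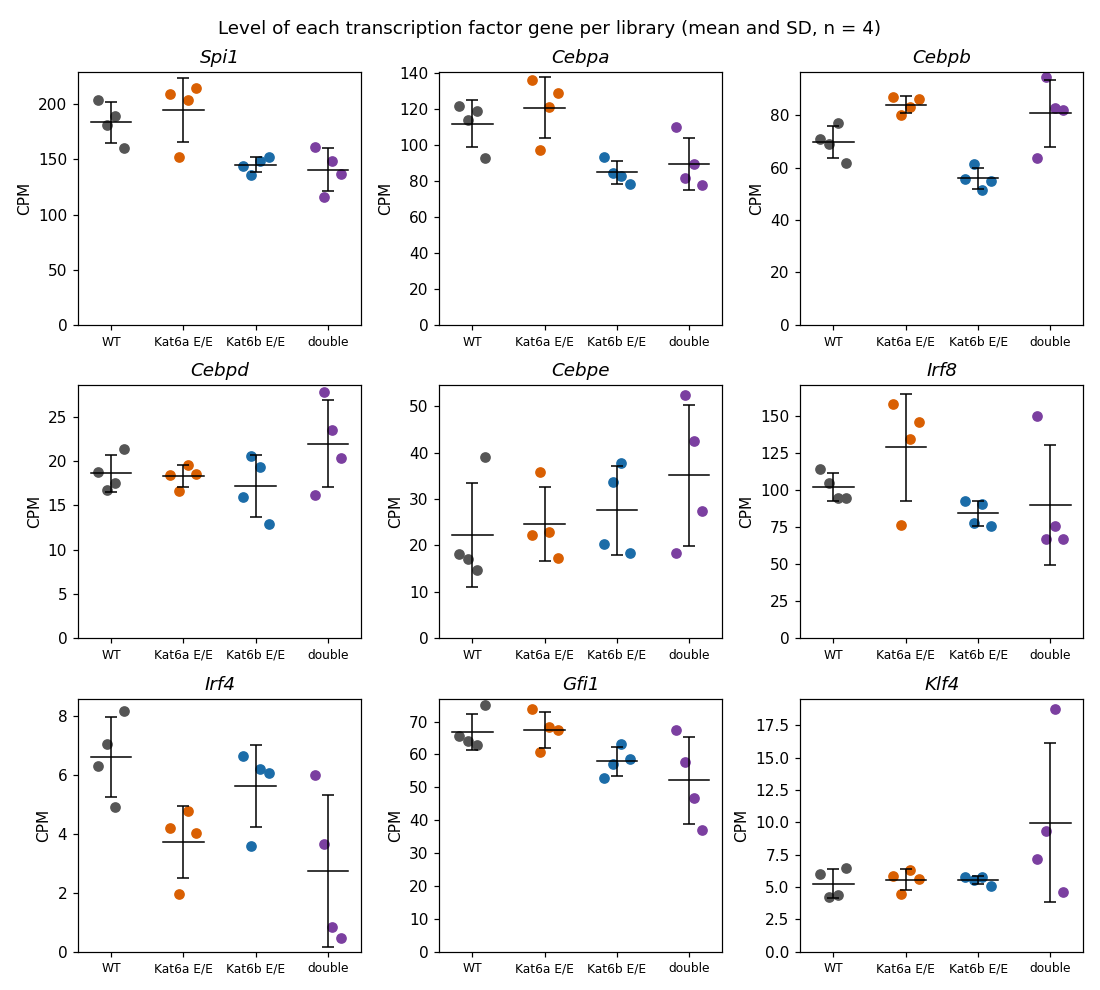
CPM of each of the 9 genes (vertical axes, from 0) in the 4 libraries of each genotype (points in replicate order), with the mean (line) and SD (bar). Every *Kat6a*E/E library lies above and every *Kat6b*E/E library below the WT libraries for *Cebpb*, and double mutant replicate 1 lies far above the other 3 for *Irf8*.

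*Cebpb*, the C/EBP gene of stress and emergency granulopoiesis, showed the clearest separation of the single mutants. It was at 71.1, 69.1, 77.1 and 61.9 CPM in WT replicates 1 to 4. The *Kat6a*E/E libraries stood at 87.0, 79.9, 83.2 and 86.2 CPM, and the *Kat6b*E/E libraries at 55.8, 61.2, 51.6 and 54.9 CPM. No range overlapped another: all 4 *Kat6a*E/E libraries were above, and all 4 *Kat6b*E/E libraries below, every WT library, a pattern that 12 of the 13071 genes (0.0918%) had. In the fit *Cebpb* was 0.32 higher in *Kat6a*E/E than in WT on the log2 scale (SE 0.0786, FDR=0.0600) and 0.30 lower in *Kat6b*E/E (log2 fold change -0.30, SE 0.0986, unadjusted p=0.00732, FDR=1), neither past the threshold. Between the single mutants it was called, at 1.54-fold higher in *Kat6a*E/E (log2 fold change 0.62, SE 0.0952, FDR=0.0102). In the litter that holds 3 WT samples and 1 *Kat6a*E/E sample, the latter was at 87.0 CPM and the former at 69.1 to 77.1 CPM.

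*Irf8*, the monocyte and dendritic cell regulator, was the 1 member called in *Kat6a*E/E against WT. WT libraries were at 114, 105, 94.3 and 94.5 CPM. In *Kat6a*E/E they were at 158, 76.6, 134 and 146 CPM, so that replicates 1, 3 and 4 were above every WT library and replicate 2, the library rich in erythroid markers, was below them all. In *Kat6b*E/E the values of 92.8, 77.5, 90.4 and 75.8 CPM all lay below the WT range. The fitted difference of *Kat6a*E/E from WT was 0.45 (SE 0.0947, FDR=0.0299), a 1.37-fold higher level, and that of *Kat6b*E/E was -0.08 (SE 0.118, FDR=1). *Kat6a*E/E exceeded *Kat6b*E/E by 0.53 (SE 0.113, FDR=0.0317). Within the litter shared by WT and *Kat6a*E/E, *Irf8* was at 158 CPM in the mutant and 94.3 to 114 CPM in the 3 WT samples. The call against WT was lost without WT replicate 2 or 3, *Kat6b*E/E replicate 1 or *Kat6a*E/E replicate 1 or 4 (FDR=0.0509 to 0.601), while the difference stayed between 0.32 and 0.52 whichever library was omitted. Of 16 other models it was called in 6, and it was not called without surrogate variables, without the litter block or with edgeR and 4 surrogate variables (difference 0.27 to 0.49 and FDR=0.000195 to 1 over the 16).

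*Spi1*, the PU.1 gene, was at 204, 181, 189 and 160 CPM in WT, and at 209, 152, 204 and 215 CPM in *Kat6a*E/E. The *Kat6b*E/E values of 144, 136, 149 and 152 CPM were all below the lowest WT value. *Kat6a*E/E overlapped WT, with replicate 2 below and replicates 1 and 4 above its range. The fitted differences from WT were 0.16 (SE 0.0598, FDR=0.240) in *Kat6a*E/E and -0.24 (SE 0.0725, unadjusted p=0.00412, FDR=1) in *Kat6b*E/E, where *Spi1* ranked number 5 of all genes by p. The single mutants differed by 0.40 (SE 0.0702, FDR=0.0152), a 1.32-fold higher level in *Kat6a*E/E.

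*Cebpa*, needed for granulocyte and monocyte progenitors, followed *Spi1* closely. It was at 122, 114, 119 and 93.0 CPM in WT, 136, 97.4, 121 and 129 CPM in *Kat6a*E/E, and 93.3, 84.3, 83.0 and 78.6 CPM in *Kat6b*E/E. The lowest *Kat6a*E/E library stood above the highest *Kat6b*E/E library, and both genotypes overlapped WT. Differences from WT were 0.20 (SE 0.0677, FDR=0.195) in *Kat6a*E/E and -0.26 (SE 0.0834, unadjusted p=0.00750, FDR=1) in *Kat6b*E/E. The difference between the single mutants was 0.45 (SE 0.0807, FDR=0.0152), or 1.37-fold.

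Counted over the group, 1 of the 9 genes was called in *Kat6a*E/E against WT, higher, where 1.36% of all genes were called (0.734% higher), and 0 were called in *Kat6b*E/E against WT, where limma, edgeR and DESeq2 each called 0 of all genes (0%) and where, in limma, the unadjusted p was under 0.05 for 364 genes (2.78%, 1.13% lower) and 3 members, all lower. That 0 of all genes became 96 (0.727%) in limma without WT replicate 4 and 61 (0.444%) without the 4 libraries that stood apart. In *Kat6a*E/E against *Kat6b*E/E, 4 of 9 were called, all higher in *Kat6a*E/E, beside 2.07% of all genes (1.12% higher). No litter held both single mutants, and none held both WT and *Kat6b*E/E. The differences in these comparisons therefore lie between litters, and the part of litter in them was not tested. The median log2 difference of the 9 genes was 0.11 in *Kat6a*E/E against WT (-0.01 over all genes tested), -0.19 in *Kat6b*E/E against WT (0.01 over all genes) and 0.26 between the single mutants (-0.02 over all genes). All 9 fitted differences of *Kat6b*E/E from WT were below 0, but those of *Cebpe*, *Irf4* and *Klf4* changed sign in some alternatives and that of *Irf8* did so with 1 library omitted. The ranges of *Kat6b*E/E and WT did not overlap for 3 members, all lower (1.73% of all genes), and those of the single mutants for 3, all higher in *Kat6a*E/E (5.26% of all genes). Against WT, *Kat6a*E/E did not overlap for 1 member higher (1.89%) and 1 lower (2.21%). The opposite direction of the 2 single mutants, higher in *Kat6a*E/E and lower in *Kat6b*E/E than in WT, held for 6 of 9 genes at any size, where 22.9% of all genes had it. It held for 3, *Spi1*, *Cebpa* and *Cebpb*, where both unadjusted p-values were below 0.05, against 0.222% of all genes. Both comparisons share the WT libraries, so the 2 differences are not independent, and a shift in the WT values moves both in the same direction. *Spi1*, *Cebpa* and *Cebpb* were not called against WT on either side. The counts of genes with opposite directions ranged from 4 to 8 at any size and from 1 to 4 with both p under 0.05 over the alternatives tried.

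**Figure D2:**
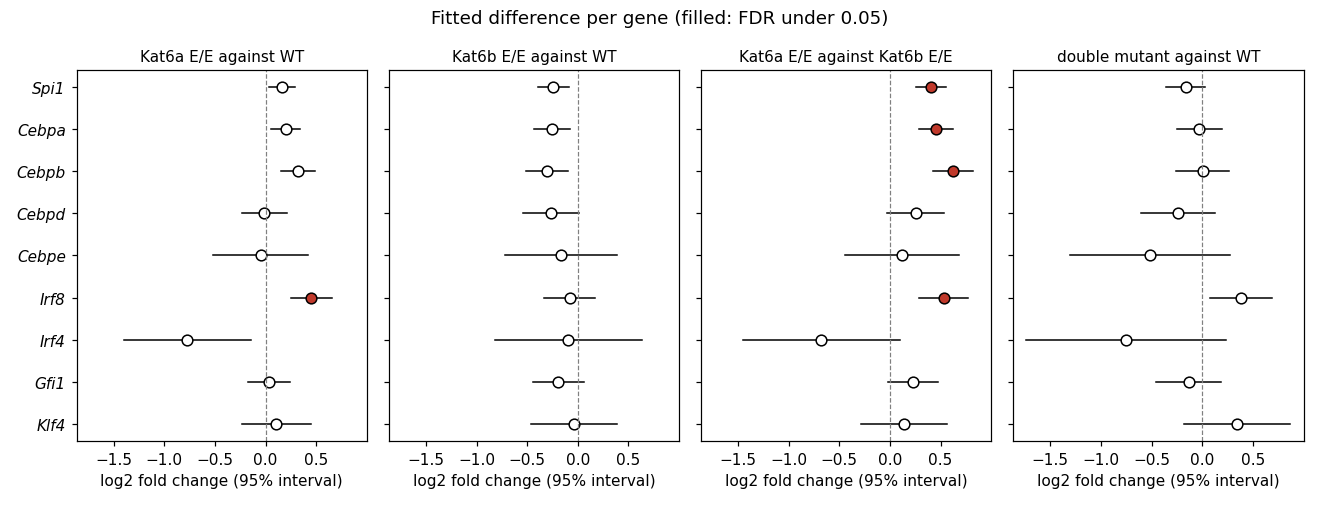
Fitted log2 fold change (horizontal axis) of each of the 9 genes in 4 comparisons, with the 95% interval (line); filled points have FDR under 0.05. *Irf8* is filled against WT in *Kat6a*E/E, and *Spi1*, *Cebpa*, *Cebpb* and *Irf8* are filled between the single mutants.

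The calls between the single mutants depended on the model. Without surrogate variables none of the 4 was called by limma (0 of 9, and 0 genes in all), although the 4 differences stayed positive in every alternative, at 0.29 to 0.43 for *Spi1*, 0.33 to 0.52 for *Cebpa*, 0.50 to 0.66 for *Cebpb* and 0.28 to 0.68 for *Irf8*. None of the 4 was called without *Kat6a*E/E replicate 1 or without replicate 4, *Cebpb* alone was called without *Kat6b*E/E replicate 2, and *Spi1* and *Cebpb* without *Kat6b*E/E replicate 4. The summed erythroid markers were at 1980 to 5620 CPM in *Kat6b*E/E and 527 to 6900 CPM in *Kat6a*E/E, and with this sum added to the model 0 of the 4 was called, with or without surrogate variables, an alternative chosen after the data had been seen. Without the 4 libraries that stood apart 5 members were called between the single mutants, *Gfi1* being the added one, beside 5.7% of all genes, and *Spi1*, *Cebpa* and *Gfi1* were called lower in *Kat6b*E/E than in WT (FDR=0.0412, 0.0491 and 0.0428), beside 0.444% of all genes.

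The remaining members did not pass the threshold in any comparison. *Gfi1*, the neutrophil-promoting repressor, was at 62.8 to 75.0 CPM in WT, 60.6 to 73.9 CPM in *Kat6a*E/E and 52.7 to 63.1 CPM in *Kat6b*E/E. Its difference between the single mutants was 0.23 (95% interval -0.02 to 0.47). *Cebpd*, a stress-induced C/EBP gene, was at 16.7 to 21.4 CPM in WT, 16.6 to 19.6 in *Kat6a*E/E and 12.9 to 20.6 in *Kat6b*E/E. *Klf4*, a zinc finger gene with a role in monocytes, was at 4.24 to 6.49, 4.44 to 6.36 and 5.10 to 5.76 CPM in the same order. *Cebpe*, the late granulocyte gene, was spread widely, from 14.8 to 39.0 CPM in WT, 17.4 to 35.9 in *Kat6a*E/E and 18.4 to 37.8 in *Kat6b*E/E. Its 95% interval for *Kat6a*E/E against WT ran from -0.52 to 0.42, so changes of either direction inside that interval were not resolved at this spread.

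*Irf4*, an IRF8 relative used in lymphocytes and some dendritic cells, had lower values in *Kat6a*E/E. It was at 6.29, 7.03, 4.92 and 8.17 CPM in WT and at 4.18, 1.95, 4.77 and 4.01 CPM in *Kat6a*E/E. All 4 *Kat6a*E/E libraries were below every WT library, which 2.21% of genes showed in that direction. The fitted difference of -0.77 (SE 0.294, unadjusted p=0.0192) had FDR=0.263 and was not called. In *Kat6b*E/E the values were 6.65, 3.58, 6.21 and 6.07 CPM, overlapping WT. The B cell marker sum was at 61.1 to 116 CPM in WT, 43.1 to 69.3 CPM in *Kat6a*E/E, 68.6 to 87.5 CPM in *Kat6b*E/E and 22.1 to 46.9 CPM in the double mutant. *Kat6a*E/E replicate 2 had the lowest *Irf4* of its genotype (1.95 CPM) and the highest sum (69.3 CPM). *Kat6b*E/E replicate 1 had the highest *Irf4* of its genotype (6.65 CPM) and the lowest sum (68.6 CPM). In WT, replicate 3 was lowest in both (4.92 and 61.1 CPM) and replicate 4 highest in both (8.17 and 116 CPM). Double mutant replicate 1 was the highest of its genotype in both (5.99 and 46.9 CPM). The part of B cells in the *Irf4* values was not tested. In bulk samples, fewer cells of a type and less RNA per cell cannot be told apart.

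In the double mutant 0 of the 9 genes was called against WT, where limma called 0 genes of all (0%) and 896 (6.85%) were below 0.05 before adjustment, 1 of them a member. Without surrogate variables edgeR called 39 genes and DESeq2 262 there, of which 0 were members. *Irf8* was at 150 CPM in double mutant replicate 1 and at 66.6, 75.7 and 66.7 CPM in replicates 2 to 4. Replicate 1 thus stood above every WT library and the other 3 below all of them. Its fitted difference from WT was 0.38 (SE 0.143, unadjusted p=0.0178, FDR=0.615), whereas the plain difference of mean log2 CPM was -0.27. By the plain least-squares share given above, 79.9% of such an estimate rests on replicate 1. Against its litter mate of *Kat6b*E/E (92.8 CPM), replicate 1 was 0.69 higher on the log2 scale.

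The other members also varied within the double mutant. *Cebpb* was at 63.7 CPM in replicate 1 and 94.4, 82.7 and 82.0 CPM in replicates 2 to 4, so that every double mutant library exceeded every *Kat6b*E/E library (2.23% of genes did so). *Cebpe* was at 18.3 CPM in replicate 1 and 27.5 to 52.4 CPM in the others, and *Klf4* at 7.18 CPM and then 9.32, 18.8 and 4.66 CPM. *Irf4* had the widest relative range of the 9 genes, at 5.99, 3.65, 0.852 and 0.466 CPM in replicates 1 to 4. *Gfi1* was at 67.4, 57.8, 46.7 and 36.9 CPM. *Spi1* and *Cebpa* were at 116 to 161 and 77.6 to 110 CPM, each highest in replicate 1. For *Cebpd* and *Cebpe* the fitted difference from WT (-0.24 and -0.52) and the plain difference of means (0.22 and 0.65) had opposite signs, so no direction is given for them. The mature neutrophil marker sum was 372 CPM in replicate 1 and 1270 to 2100 CPM in replicates 2 to 4, against 182 to 626 CPM in all other libraries, and the erythroid sum 1320 and 8950 to 15600 CPM, and their part in these values was not tested.

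Against *Kat6a*E/E, 0 of 9 genes was called in the double mutant (0% of all genes; limma gave 197 genes, 1.51%, and 3 members an unadjusted p under 0.05; edgeR called 0 genes and DESeq2 62, with 1 member). Against *Kat6b*E/E, 0 of 9 was called beside 1.48% of all genes, with *Irf8* nearest at 0.46 (SE 0.123, FDR=0.0643). The departure from additivity, which asks whether the double mutant differs from the sum of both single mutants, was called for 0 of 9 members and 0 of all genes (0%) by limma, edgeR and DESeq2, and by limma no member had an unadjusted p under 0.05, which 4.99% of all genes had. Without double mutant replicate 1 these counts became 4 of 9 against WT (*Cebpb* and *Klf4* higher, *Irf4* and *Gfi1* lower), 5 against each single mutant and 3 for additivity, beside 16.4% of all genes against WT, 15.1% against *Kat6a*E/E, 22.1% against *Kat6b*E/E and 10.9% for additivity, and *Irf8* changed sign to -0.24 against WT. The double mutant libraries left then all came from 1 litter that held no other genotype. In these counts the genotype and that litter cannot be told apart.

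**Figure D3:**
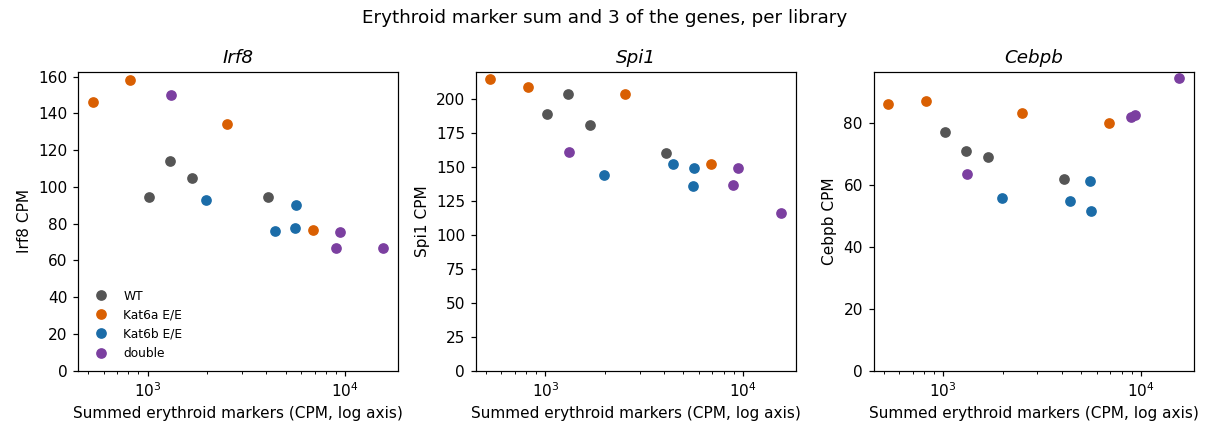
CPM of *Irf8*, *Spi1* and *Cebpb* (vertical axes, from 0) against the summed CPM of 8 erythroid markers (horizontal, log axis) in the 16 libraries, coloured by genotype. The 4 libraries at 6900 to 15600 CPM have 66.6 to 76.6 CPM of *Irf8*, and their *Cebpb* is at 79.9 to 94.4 CPM.

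Across the 16 libraries *Spi1*, *Cebpa* and *Irf8* had like profiles, with Pearson r of log2 CPM of 0.914 for *Spi1* and *Cebpa*, 0.869 for *Cebpa* and *Irf8* and 0.818 for *Spi1* and *Irf8*. *Cebpb* was apart from them (r=0.224 with *Spi1*, 0.376 with *Cebpa* and 0.104 with *Irf8*). *Cebpe* ran against *Spi1* (r=-0.681) and with *Cebpd* (0.727), and *Irf4* ran with *Gfi1* (0.785). The genes most like *Spi1* among all those tested were *Igfbp4*, *Psd4* and *Vps37c* (r=0.934 to 0.944), those most like *Cebpa* were *Rps6ka1*, *Emb* and *Gm2a* (0.944 to 0.957), and those most like *Irf8* were *Prkcd*, *Myo1f* and *Tifab* (0.914 to 0.932). These are descriptions over libraries that share genotype, litter and cell composition.

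Genes that these factors are known to activate were read beside them. This list, like the 9 members and the lists below, was chosen with earlier results of these data known. Its counts beside those of all genes are descriptions and no test of enrichment. Of 22 textbook target genes, 6 were called higher and 0 lower in *Kat6a*E/E against WT (0.734% and 0.627% of all genes; median log2 difference 0.27, against -0.01 over all genes), and 8 higher and 0 lower in *Kat6a*E/E against *Kat6b*E/E (median 0.42, against -0.02). In *Kat6b*E/E against WT 0 was called, with 6 lower and 0 higher at an unadjusted p under 0.05 and a median of -0.16. *Lyz2*, the lysozyme of phagocytes, was at 116 to 140 CPM in WT, 151 to 198 CPM in *Kat6a*E/E and 103 to 130 CPM in *Kat6b*E/E, and differed from WT by 0.54 in *Kat6a*E/E (SE 0.0786, FDR=0.00548). *Csf2rb*, the shared beta chain of the GM-CSF, IL-3 and IL-5 receptors, stood at 87.1 to 96.8, 102 to 141 and 76.2 to 80.7 CPM, with no overlap between WT and either single mutant (log2 difference 0.45, FDR=0.00400, against WT). The mature neutrophil marker sum (7 genes) was at 182 to 510 CPM in WT (median 267), 259 to 626 CPM in *Kat6a*E/E (median 476) and 197 to 415 CPM in *Kat6b*E/E (median 348). None of the 7 markers was called by limma in *Kat6a*E/E against WT, and 4 had an unadjusted p under 0.05, all higher, with *Ltf* at 1.66 and *Ngp* at 1.53. The macrophage sum (9 genes) was at 100 to 169, 47.1 to 106 and 59.8 to 214 CPM in the same order. The part of these cells in the target values was not tested.

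The other called targets fall into receptors and the NADPH oxidase. *Csf1r*, the M-CSF receptor, rose by 0.41 (SE 0.0746, FDR=0.0174) and *Il6ra*, the IL-6 receptor alpha chain, by 0.40 (FDR=0.0385) in *Kat6a*E/E against WT. This *Il6ra* call was kept in 5 of 16 other models and with 5 of the 16 libraries omitted in turn. Of the oxidase subunits, *Cybb* rose by 0.54 (FDR=0.0216) and *Ncf1* by 0.33 (FDR=0.0156). *Ncf4* and *Itgam*, which encodes the integrin CD11b, were called in addition between the single mutants (0.57 and 0.56, each FDR=0.0154). The granule genes *Mpo* and *Prtn3* were not called in any comparison, and in the double mutant 6 of 22 targets were called higher than in *Kat6b*E/E (0.551% of all genes) and 0 against WT. All 6 of these double mutant calls were lost without *Kat6b*E/E replicate 1, by limma without surrogate variables, and with a block for replicate number. That of *Il6ra* was kept with only 1 of the 16 libraries omitted in turn. The 6 and 8 calls of *Kat6a*E/E became 7 and 15 without the 4 libraries that stood apart, 0 and 0 by limma without surrogate variables, and 3 and 2 with the erythroid sum added to the surrogate variables. DESeq2 without surrogate variables kept none of the 6 against WT. Between the single mutants it kept *Csf1r*, *Csf2rb*, *Il6ra*, *Cybb*, *Ncf1* and *Ncf4* and lost *Lyz2* and *Itgam*. The 6 became 0 without *Kat6a*E/E replicate 1 and 2 without WT replicate 2, and the 8 became 2 without *Kat6a*E/E replicate 1, 3 without replicate 4 and 5 without *Kat6b*E/E replicate 2. Without *Kat6a*E/E replicate 2 or any 1 double mutant library they became 8 to 10 and 16.

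**Figure D4:**
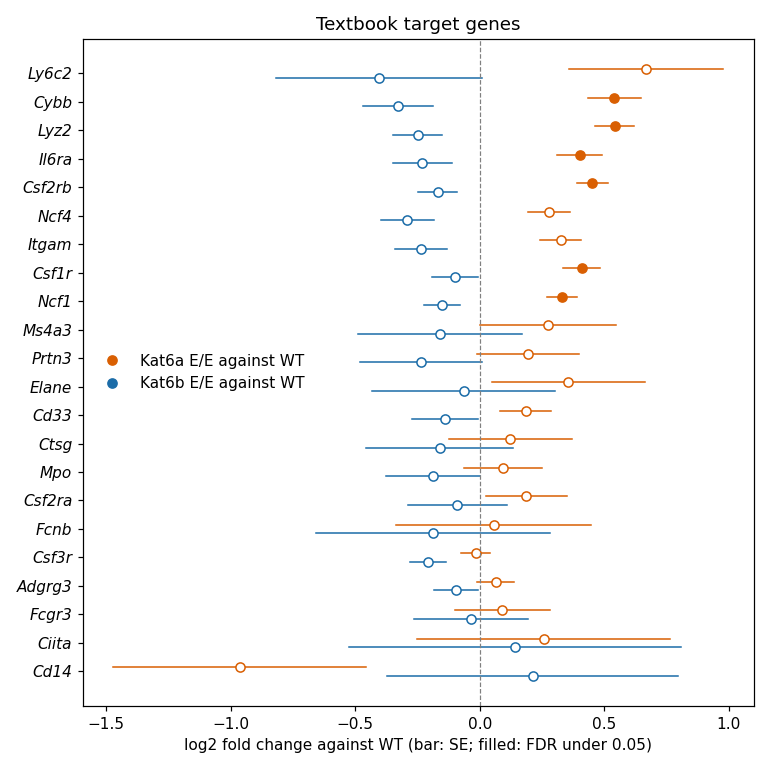
Fitted log2 fold change against WT (horizontal axis) of the 22 textbook target genes in *Kat6a*E/E and *Kat6b*E/E, with the SE (line); filled points have FDR under 0.05. The 6 filled points, all of *Kat6a*E/E, lie between 0.33 and 0.54, and no *Kat6b*E/E point is filled.

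Among 24 paralogues of the 9 factors, 1 was called in *Kat6a*E/E against WT, where 1.36% of all genes were. *Irf5*, an IRF of the inflammatory macrophage response, was at 25.2 to 33.6 CPM in WT and 30.8 to 52.8 CPM in *Kat6a*E/E and rose by 0.68 (SE 0.0829, FDR=0.00188). It was also 0.63 higher than in *Kat6b*E/E (FDR=0.0140). Against WT its call was lost without *Kat6a*E/E replicate 1, and it was kept in 11 of 16 other models. *Gfi1b*, the erythroid and megakaryocytic counterpart of *Gfi1*, was 0.91 lower in *Kat6a*E/E than in *Kat6b*E/E (log2 fold change -0.91, SE 0.155, FDR=0.0154), at 32.8 to 94.8 and 86.5 to 125 CPM, with overlap.

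Of the partners and upstream regulators, 20 of 21 were tested. *Gata2*, a stem and progenitor factor that works against PU.1, was at 99.0 to 114 CPM in WT and 56.0 to 82.3 CPM in *Kat6a*E/E, without overlap, and fell by 0.57 on the log2 scale (SE 0.0758, FDR=0.00353). *Trib2*, which promotes degradation of C/EBPalpha, fell by 1.69 (SE 0.320, FDR=0.0216), from 6.83 to 15.9 CPM in WT to 2.28 to 4.55 CPM. Both calls were lost without *Kat6a*E/E replicate 1 and by limma without surrogate variables, and that of *Trib2* also without WT replicate 2 or *Kat6a*E/E replicate 4. Over the other models the call was kept in 12 of 16 for *Gata2* and 9 of 16 for *Trib2*. The mast cell or basophil marker sum (4 genes) was at 37.2 to 57.7 CPM in WT and 22.6 to 36.0 CPM in *Kat6a*E/E, and of its genes the mast cell protease gene *Cpa3* was called lower (-1.04, FDR=0.000582). The megakaryocyte sum (5 genes) was at 62.0 to 115 CPM and 49.7 to 81.1 CPM, with *Itga2b*, the integrin chain CD41, called lower (-0.78, FDR=0.0179). Their part in the *Gata2* and *Trib2* values was not tested. *Id1* and *Id2*, inhibitors of E proteins, were called 0.57 and 0.64 higher in *Kat6a*E/E than in *Kat6b*E/E (FDR=0.0466 and 0.0431), calls kept with 3 and 9 of the 16 libraries omitted in turn.

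Of 17 factors of rival lineages, 1 was called in *Kat6a*E/E against WT, where 1.36% of all genes were (0.627% lower): *Il7r*, the IL-7 receptor of lymphoid progenitors, which fell by 0.87 (SE 0.183, FDR=0.0299). The *Il7r* call was kept in 6 of 16 other models and with 8 of the 16 libraries omitted in turn, being lost without WT replicate 2, 3 or 4, *Kat6b*E/E replicate 1, 3 or 4, or *Kat6a*E/E replicate 1 or 4. Between the single mutants 4 were called lower in *Kat6a*E/E (0.941% of all genes) and 0 higher, the erythroid and megakaryocytic factors *Gata1* (-1.11, FDR=0.0423), *Zfpm1* (-0.70, FDR=0.0358), *Tal1* (-0.55, FDR=0.0203) and *Gfi1b*. The median over the list was -0.19 beside -0.02 over all genes. The erythroid marker sums given above moved with these genes, and their part in the difference was not tested. All 4 calls were lost without *Kat6a*E/E replicate 1 or 4, without *Kat6b*E/E replicate 2, and with the erythroid sum in the model.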

How the data were processed

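The deposited values are gene counts: the authors aligned read pairs to mm39 with Rsubread and assigned them to RefSeq genes with featureCounts, giving 1 table per sample; the libraries were unstranded. The main model followed the methods of the study: protein-coding genes without Y-linked genes (20951, with types from a GRCm38 gene table used for names only), low counts removed by filterByExpr, TMM size factors, 4 surrogate variables (wsva) and a voomLmFit model in which litter was the random block (correlation 0.331), with robust empirical Bayes moderation in limma. One fit held all 16 LSK libraries. P-values were adjusted by Benjamini-Hochberg over the 13071 genes tested (FDR), and genes with FDR under 0.05 are called. Intervals are 95%. R 4.3.3, limma 3.58.1, edgeR 4.0.16 and DESeq2 1.42.0 were used. Correlations used log2 CPM with a pseudocount of 0.5.

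The members and lists were chosen with earlier results of these data known. Named genes are the members, *Kat6a*, *Kat6b*, list genes that were called or had one of the 2 smallest p of a list, and the 3 genes most like *Spi1*, *Cebpa* and *Irf8*. Marker sums were summed CPM over lists of markers. Each sample is a separate embryo liver by its label; no libraries agreed within sampling noise (smallest chi-square per degree of freedom 8.00). More than 1000 counts of *Xist* were seen in 5 of 16 libraries, so the sexes were mixed. The procedure was also run on simulated counts with a common profile, added differences and litter noise. No simulated library stood apart as those described above did, so that run does not cover surrogate variables fitted to such libraries. Alternatives were other numbers of surrogate variables, no litter block, edgeR quasi-likelihood tests, DESeq2, other size factors, no filter, all gene types, a block for replicate number, *Xist* as a covariate, the erythroid marker sum as a covariate (with and without surrogate variables), the 4 libraries that stood apart left out (these added after seeing the data), only the libraries compared, and omission of each library. The 24 libraries of E9.5 embryos were used for levels only. A further gene of the target list is not reported here.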

Additional observations from a re-analysis of the deposited data

Results flagged for a closer look

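In 36 groups of 4 libraries (9 genes in 4 genotypes), 2 held a library farther from the others than Dixon's 95% criterion allows; chance flags about 1 in 20 groups. *Irf8* in double mutant replicate 1 was at 150 CPM, against 66.6 to 75.7 CPM in the other 3 double mutant libraries, which had 8950 to 15600 CPM of summed erythroid markers against 1320 CPM in replicate 1. *Cebpe* in WT replicate 4 was at 39 CPM, against 14.8 to 18.2 CPM in the other 3 WT libraries. That library had 4090 CPM of summed erythroid and 510 CPM of summed mature neutrophil markers, the highest of the WT libraries, and was the 1 WT sample from another litter. The part of cell composition or litter in these values was not tested.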

How the results depend on the processing

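Depth did not limit the higher members, whereas *Irf4* and *Klf4* rested on as few as 10 and 79 counts. The count of the 9 members called kept within 1.5 times its value, except as follows; the cause was not tested. In *Kat6a*E/E against WT (1 called) it was 0 without surrogate variables in limma, edgeR or DESeq2, with edgeR and 4 surrogate variables, without the litter block, with a replicate block, with only the libraries compared, and with the erythroid sum as a covariate, with or without surrogate variables; omitting single libraries gave 0 to 2. In *Kat6a*E/E against *Kat6b*E/E (4 called) it was 0 without surrogate variables in limma or edgeR and with the erythroid sum in either form, and 1 with only the libraries compared; omitting single libraries gave 0 to 6. Omitting single libraries gave 0 to 1 in *Kat6b*E/E against WT, 0 to 4 in the double mutant against WT, 0 to 5 against *Kat6a*E/E, 0 to 5 against *Kat6b*E/E and 0 to 3 for additivity (each 0 as reported). Without the 4 libraries that stood apart 3 were called in *Kat6b*E/E against WT. That fit held only replicate 1 of the double mutant, so its calls for the double mutant are not given. The double mutant against *Kat6b*E/E had 2 with 2 surrogate variables or with edgeR and 4 of them, and 1 with 6, with DESeq2, and with the erythroid sum in place of surrogate variables; against *Kat6a*E/E it had 1 with DESeq2. Over all genes, the alternatives other than omission of 1 library called from 0 (edgeR without surrogate variables) to 303 (without the 4 libraries) genes in *Kat6a*E/E against WT (178 reported), from 0 (limma without surrogate variables) to 1213 (edgeR with 4) between the single mutants (270 reported) and from 0 to 1333 in the double mutant against *Kat6b*E/E (193 reported). Omitting single libraries moved the 178 to between 1 (without *Kat6a*E/E replicate 1) and 364 (without double mutant replicate 2), with 25 without WT replicate 2 and 43 without *Kat6a*E/E replicate 4. It moved the 270 to between 3 (without *Kat6a*E/E replicate 1) and 1273 (without WT replicate 4), with 8 without *Kat6a*E/E replicate 4 and 24 and 63 without *Kat6b*E/E replicates 2 and 4. Without double mutant replicate 1, 2170 genes were called in the double mutant against WT, 1998 against *Kat6a*E/E, 2929 against *Kat6b*E/E and 1436 for additivity. The double mutant was then 1 litter that held no other genotype, so genotype and litter cannot be told apart there. Replicate numbers did not pair the samples: same-numbered samples shared a litter only in replicate 1, and their deviations from the genotype means correlated from -0.522 to 0.463. With the replicate block 4 members were still called between the single mutants and 0 in *Kat6a*E/E against WT.

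In the 3 comparisons with WT and the one between the single mutants, signs changed only where the reported value was not called (log2 values). In *Kat6a*E/E against WT, *Cebpd* became 0.051 with 6 surrogate variables, 0.0061 with edgeR and 4, 0.011 with the erythroid sum and 4, and 0.072 without the 4 libraries. *Cebpe* in the same order became 0.21 (6), 0.12 (erythroid sum and 4) and 0.18 (without the 4 libraries), and 0.13 with edgeR, 0.14 with DESeq2 and 0.092 with only the libraries compared, all without surrogate variables. *Gfi1* became -0.012 with the erythroid sum alone. In *Kat6b*E/E against WT, *Cebpe* became 0.058, 0.30 and 0.29 without surrogate variables in limma, edgeR and DESeq2, and 0.020 with edgeR and 4. *Irf4* became 0.0014 without the litter block and 0.10 with edgeR and 4. *Klf4* became 0.052 with 2 surrogate variables, 0.070 and 0.058 with edgeR and DESeq2 without them, and 0.025 with edgeR and 4. In the double mutant against WT, *Irf8* became -0.11, -0.18, -0.19 and -0.15 in limma, edgeR, DESeq2 and with only the libraries compared, all without surrogate variables. In that order *Cebpd* became 0.064, 0.24, 0.23 and 0.047, and *Cebpe* 0.19, 0.65, 0.65 and 0.12. *Cebpd* became 0.0051 with the erythroid sum alone. *Gfi1* became 0.051 without the 4 libraries, a fit in which the double mutant was replicate 1 alone. *Cebpb* became -0.068 with 6 surrogate variables, -7e-04 without the litter block, -0.031 with edgeR and 4, -0.016 with the replicate block, -0.050 with the erythroid sum and 4, and -0.10 without the 4 libraries. Between the single mutants *Cebpe* became -0.12, -0.17, -0.16 and -0.18 in limma, edgeR, DESeq2 and with only the libraries compared, -0.047 with 2 surrogate variables, -0.012 without the litter block, -0.034 with edgeR and 4, and -0.093 with the replicate block. Omitting single libraries, values spanned 0 in *Kat6a*E/E against WT for *Cebpd* (-0.043 to 0.10), *Cebpe* (-0.25 to 0.33) and *Gfi1* (-0.10 to 0.15), and in *Kat6b*E/E against WT for *Cebpe* (-0.28 to 0.39), *Irf8* (-0.17 to 0.020), *Irf4* (-0.31 to 0.41) and *Klf4* (-0.088 to 0.18). They did so in the double mutant against WT for *Cebpa* (-0.18 to 0.0003), *Cebpb* (-0.13 to 0.38), *Cebpd* (-0.25 to 0.14), *Cebpe* (-0.56 to 0.19), *Irf8* (-0.24 to 0.48) and *Gfi1* (-0.67 to 0.060), and between the single mutants for *Cebpe* (-0.051 to 0.48). Of the other values of single members, 991 kept their sign and side of the threshold, 49 lost the call and 27 gained it.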

Other observations

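In the 24 whole E9.5 embryos of 6 genotypes, the same genes were measured at low levels. Besides the genotypes of the LSK libraries, these embryos included *Kat6a* null and *Kat6b* null homozygotes, 4 of each. The ranges and medians that follow pool all 24 embryos, null mutants included. *Cebpe*, *Irf4* and *Gfi1* did not pass the filter on low counts there, with 0 to 1, 0 to 3 and 1 to 11 counts per library. *Cebpb* was at 3.68 to 11.6 CPM (median 4.99), *Irf8* at 2.38 to 5.16 (median 3.67), *Klf4* at 2.54 to 5.64 (median 3.19), *Cebpa* at 1.62 to 3.94 (median 2.90), *Cebpd* at 1.67 to 3.46 (median 2.55) and *Spi1* at 0.312 to 2.52 CPM (median 0.842). In the LSK libraries *Spi1* was at 116 to 215 CPM.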
